A study of Mus musculus with 27 samples.

Results

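The genes described here are the cardiac GATA transcription factors Gata4, Gata5 and Gata6 and their cofactor Fog2, whose gene symbol is Zfpm2. They were chosen by gene symbol, each was read by 1 probe set (10420747, 10490491, 10453857 and 10423902 in that order), and they are 4 of the 19935 genes measured on 27 arrays. All 4 were measured on every array, with no filter on low values. The study profiled embryonic mouse hearts at stage E11.5, dissected from a strain background labelled C57Bl/6/BLKSW mix, with total RNA on Affymetrix arrays. It asked how the dose of the chromatin remodelling ATPase Brg1, encoded by Smarca4, acts together with the dose of the cardiac transcription factors Tbx5 and Nkx2-5. There were 6 wild type arrays, 6 labelled Brg1+/-, 5 labelled Tbx5+/-, 4 labelled Nkx2-5+/-, 3 labelled Tbx5+/-;Brg1+/- and 3 labelled Nkx2-5+/-;Brg1+/-, where +/- means that 1 of the 2 copies of the gene carried a deletion. How the deletions were made, and whether a heart or a pool of hearts was hybridised, is not given in the sources used here. The p-values therefore measure the spread between these arrays, which may be in part technical.

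GATA factors are zinc finger proteins that bind short DNA sites with the core letters GATA, and Gata4, Gata5 and Gata6 are among the members that mesodermal and endodermal organs use. In the heart, Gata4 binds Nkx2-5, Tbx5 and other factors on the promoters of heart muscle genes, Gata6 acts with it in the myocardium and outflow tract, and Gata5 is known for its role in the endocardium and valves. Fog2 does not bind these sites itself. It binds the amino-terminal zinc finger of GATA factors and recruits corepressors such as the NuRD complex, and mouse embryos without it die with defects of the septa and the coronary vessels.

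The values are log2 signals, and every level below is on that scale. Smarca4 checked the labels. It lay between 9.16 and 9.64 on 11 of the 12 arrays labelled with a Brg1 deletion and between 9.89 and 10.23 on 14 of the 15 without one. The array labelled Nkx2-5+/- replicate 3 had 9.57, inside the first range, and the array labelled Tbx5+/-;Brg1+/- replicate 3 had 10.01, inside the second. Nkx2-5 itself was also higher on the array labelled Nkx2-5+/- replicate 3, at 9.40, than on the other 3 arrays of that label, at 8.48 to 8.63. Both arrays go against their labels. For the 4 genes, comparisons that include such an array are also given without it or without both. The correlations over all arrays are also given without both. Most gene list counts in Nkx2-5+/- against wild type and in the Nkx2-5 by Brg1 interaction are also given without Nkx2-5+/- replicate 3. Of the targeted genes, Smarca4 fell by 0.74 in Brg1+/- hearts (limma adjusted p 0.000311) and Nkx2-5 fell by 0.85 in Nkx2-5+/- hearts (0.00700), both against wild type. Tbx5 was not lower in Tbx5+/- hearts, at a difference of 0.23 (0.9997), and whether its probes lie in the deleted stretch is not given in the sources used here, so the Tbx5 labels have no check. The tissue label matched its markers, since Tnnt2, the troponin T of heart muscle, lay between 12.19 and 13.31 on all arrays.

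The sequences shown are stretches of promoter searched for the letters GATA factors bind, and their part in the results was not tested. RefSeq's promoter table for GRCm38.p6 was searched by symbol for 250 bases before each transcription start. It matched 1 of the 4 genes, Gata5, and 16 of 18 genes listed as GATA targets in heart. The GATA motif was searched on both strands as GATA with A or T before it and A or G after it, together with AGGTGT for T-box factors and AAGTG for Nkx2-5 and its relatives. The motifs were found in 26.54%, 11.83% and 40.71% of all 32851 promoters of the same length. The promoter of Gata5 is shown as the only 1 of the 4 genes matched, and those of Nppa, Hand2 and Myh6 as the listed targets with a GATA match that fell in hearts labelled Nkx2-5+/-, so they were chosen after their values were seen. Capitals mark a match to any of the 3 motifs.
Gata5: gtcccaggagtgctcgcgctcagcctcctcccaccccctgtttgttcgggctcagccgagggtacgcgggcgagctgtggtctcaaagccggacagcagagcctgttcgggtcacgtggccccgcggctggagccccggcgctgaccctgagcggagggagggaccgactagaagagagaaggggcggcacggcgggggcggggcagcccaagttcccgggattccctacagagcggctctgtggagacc
Nppa: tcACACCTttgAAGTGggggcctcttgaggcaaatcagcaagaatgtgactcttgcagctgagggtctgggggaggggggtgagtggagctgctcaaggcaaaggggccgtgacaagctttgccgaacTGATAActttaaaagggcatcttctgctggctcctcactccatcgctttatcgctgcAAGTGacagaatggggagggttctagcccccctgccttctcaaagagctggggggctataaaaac
Hand2: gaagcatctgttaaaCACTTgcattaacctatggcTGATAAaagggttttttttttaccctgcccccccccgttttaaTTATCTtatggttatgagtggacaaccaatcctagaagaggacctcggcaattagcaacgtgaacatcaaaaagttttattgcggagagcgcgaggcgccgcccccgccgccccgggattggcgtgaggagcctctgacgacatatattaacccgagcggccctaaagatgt
Myh6: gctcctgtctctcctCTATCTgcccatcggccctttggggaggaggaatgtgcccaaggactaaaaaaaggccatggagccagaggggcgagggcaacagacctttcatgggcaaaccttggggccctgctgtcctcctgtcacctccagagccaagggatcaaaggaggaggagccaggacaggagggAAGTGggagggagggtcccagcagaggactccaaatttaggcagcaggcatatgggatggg
The Gata5 stretch (chr2:180334680-180334929, minus strand) is 70.0% G and C, against a median of 52.4% over all promoters, and none of the 3 motifs is in this window. Nppa, the atrial natriuretic peptide gene (chr4:148000472-148000721, plus strand), has TGATAA from 122 bases before the start, an AGGTGT on the other strand at its far end, and AAGTG at 2 places. Hand2, a bHLH factor of the right ventricle and outflow tract (chr8:57320733-57320982, plus strand), has 2 GATA matches, TGATAA from 215 bases and AGATAA on the other strand from 172 bases before the start. It also has AAGTG on the other strand from 235 bases before the start. Myh6, the alpha heavy chain of cardiac myosin (chr14:54966608-54966857, minus strand), has AGATAG on the other strand from 235 bases before the start and 1 AAGTG. A match is a description of letters, and no binding was measured.

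Gata4 is required for the folding and growth of the heart tube. In wild type hearts its lowest, median and highest values were 9.81, 10.21 and 10.48, and in Brg1+/- hearts they were 9.85, 10.05 and 10.21. The 5 Tbx5+/- arrays had 10.23, 10.24, 10.20, 10.34 and 10.25, within the wild type range. The Nkx2-5+/- arrays had 9.82, 9.54, 10.33 and 9.76, and the highest of them is the array that goes against its label. The compound Tbx5+/-;Brg1+/- arrays had 10.19, 10.39 and 9.95, with the array against its label the lowest, and the compound Nkx2-5+/-;Brg1+/- arrays had 10.35, 10.28 and 10.40. Gata4 was thus low on 3 of the 4 arrays labelled Nkx2-5+/-, next to the lowest wild type and Brg1+/- arrays, and in the upper part of the wild type range on all arrays of the Nkx2-5 compound.

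Gata6 is the paralog that overlaps with Gata4 in the myocardium. Its wild type values were 9.80, 10.22 and 10.48 at the lowest, median and highest, and those of Brg1+/- hearts were 9.75, 9.89 and 10.12. The Tbx5+/- arrays had 10.16, 10.13, 10.21, 10.34 and 10.22. The Nkx2-5+/- arrays had 9.60, 9.34, 10.15 and 9.66, so 3 of the 4 lay below every wild type and every Brg1+/- array and the third replicate did not. These 3 arrays lay below every wild type array for 11.8% of all genes, and the share against Brg1+/- arrays was not counted. The Tbx5+/-;Brg1+/- arrays had 10.12, 10.38 and 9.89, and the Nkx2-5+/-;Brg1+/- arrays had 10.20, 10.23 and 10.19, close to the wild type median.

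Gata5 is the endocardial paralog, and it had the widest spread of the 4 genes among the arrays labelled Nkx2-5+/- (SD 0.59 against 0.34 to 0.36). Its wild type values were 8.09, 8.37 and 8.73, and its Brg1+/- values 8.003, 8.29 and 8.39. The Tbx5+/- arrays had 8.16, 8.28, 8.03, 8.22 and 8.44. The Nkx2-5+/- arrays had 7.95, 7.69, 9.01 and 7.91, where the third replicate was the highest of all 27 arrays and the second the lowest. The Tbx5+/-;Brg1+/- arrays had 7.98, 8.28 and 7.88, and the Nkx2-5+/-;Brg1+/- arrays had 8.39, 8.41 and 8.53, within the wild type range.

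Zfpm2, the cofactor, followed the same order as Gata6 at the low end. Its wild type values were 7.46, 7.67 and 7.78, and its Brg1+/- values 7.27, 7.43 and 7.58, which overlap with the lower wild type arrays. The Tbx5+/- arrays had 7.70, 7.77, 7.71, 7.76 and 7.77, at the top of the wild type range. The Nkx2-5+/- arrays had 7.31, 6.86, 7.73 and 7.34, of which all but the third lay below every wild type array, as for 11.8% of all genes. The Tbx5+/-;Brg1+/- arrays had 7.61, 7.91 and 7.62, and the Nkx2-5+/-;Brg1+/- arrays had 7.64, 7.61 and 7.70.

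**Figure D1:**
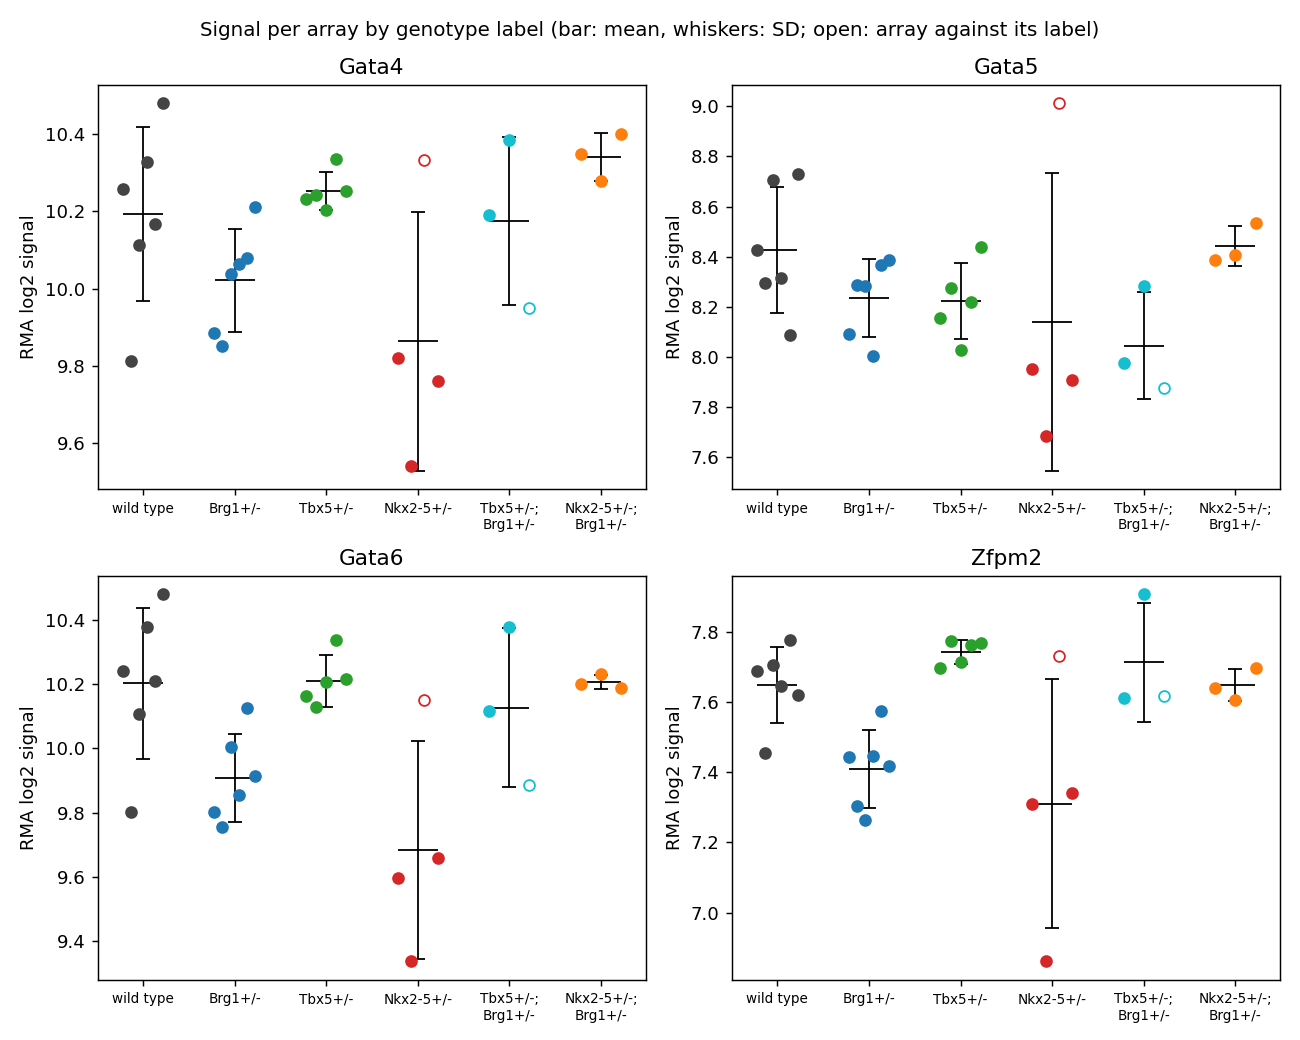
RMA log2 signal of Gata4, Gata5, Gata6 and Zfpm2 on each of the 27 arrays by genotype label, with a bar for the mean and whiskers for the SD of each group; open circles are the arrays labelled Nkx2-5+/- replicate 3 and Tbx5+/-;Brg1+/- replicate 3, which go against their labels. The filled Nkx2-5+/- circles lie at the low end in all 4 panels and the open one does not, for example 10.15 against 9.34 to 9.66 for Gata6.

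In the order of group means, Nkx2-5+/- came last for Gata4 (9.86 ± 0.34, SD, n = 4), Gata6 (9.69 ± 0.34) and Zfpm2 (7.31 ± 0.36), and Brg1+/- came next above it for these 3 genes, with 10.02 ± 0.13, 9.91 ± 0.14 and 7.41 ± 0.11 (SD, n = 6). For Gata5 the lowest mean was that of Tbx5+/-;Brg1+/- (8.05 ± 0.21, SD, n = 3), followed by Nkx2-5+/- (8.14 ± 0.59). Wild type means were 10.19 ± 0.23 for Gata4, 8.43 ± 0.25 for Gata5, 10.20 ± 0.24 for Gata6 and 7.65 ± 0.11 for Zfpm2 (SD, n = 6). The highest mean was that of Nkx2-5+/-;Brg1+/- for Gata4 (10.34 ± 0.06) and Gata5 (8.44 ± 0.08), and that of Tbx5+/- for Gata6 (10.21 ± 0.08) and Zfpm2 (7.74 ± 0.04). Of the 20 pairs of neighbours in these orders, 0 differed after adjustment (two-sided exact permutation tests, lowest p 0.0238, Benjamini-Hochberg adjusted over the 20 pairs 0.476, for Zfpm2 in Nkx2-5+/-;Brg1+/- over Brg1+/-). Left without replicate 3, the Nkx2-5+/- group had a mean of 9.71 for Gata4, 7.85 for Gata5, 9.53 for Gata6 and 7.17 for Zfpm2. It was then last for Gata5 too. Left without its own replicate 3, the Tbx5+/-;Brg1+/- group (n = 2) had a mean of 10.29 for Gata4, 8.13 for Gata5, 10.25 for Gata6 and 7.76 for Zfpm2. It then came first for Gata6 and Zfpm2, above Tbx5+/-. Without both arrays, 0 of the 20 pairs of neighbours differed after adjustment (exact permutation tests, lowest adjusted p 0.159).

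Across all 6 groups, the test for any difference between genotypes passed for 0 of the 4 genes (limma moderated F test, adjusted p 0.162 for Gata4, 0.582 for Gata5, 0.0536 for Gata6 and 0.0622 for Zfpm2), while 3.19% of all genes passed. Unadjusted, the p was 0.0201, 0.267, 0.00190 and 0.00268 in the same order. All 4 genes passed without the third Nkx2-5+/- replicate, where 16.5% of all genes did. Without wild type replicate 2, Gata6 (adjusted p 0.0229) and Zfpm2 (0.0474) passed. Gata6 also passed without Brg1+/- replicate 5 (0.0410) or without the third Tbx5+/-;Brg1+/- replicate (0.0374). How many of all genes passed without wild type replicate 2 or in these other fits was not counted.

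Loss of an Nkx2-5 copy went with a lower level of Gata6. Gata6 fell by 0.52 on the log2 scale, 1.43-fold, in hearts labelled Nkx2-5+/- against wild type (SE 0.13, limma adjusted p 0.0170, means 9.69 and 10.20). It was the 1 gene of the 4 that passed, and 5.16% of all genes were called lower in this comparison and 7.89% in either direction. With array medians made equal, which moves the median of all genes from -0.01 to 0.05, the genes called numbered 782 higher and 627 lower, in place of 543 and 1029, and Gata6 still fell by 0.46 (adjusted p 0.0276). In bulk RNA, fewer cells of a type and less RNA per cell cannot be told apart. Zfpm2 differed by -0.34 (SE 0.11, adjusted p 0.0536), Gata4 by -0.33 (SE 0.12, adjusted p 0.0983) and Gata5 by -0.29 (SE 0.17, adjusted p 0.339), and these 3 did not pass.

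The call on Gata6 depended on single arrays of the Nkx2-5+/- group. Without replicate 2 its difference was -0.40 (adjusted p 0.138), and without replicate 4 it was -0.51 (adjusted p 0.0631). The share of all genes called in these 2 fits is not given here, so the lost calls may not be particular to Gata6. Without replicate 3, the array against its label, all 4 genes were called. Gata6 fell by 0.67 (adjusted p 0.000262), Gata5 by 0.58 (0.00159), Gata4 by 0.49 (0.00272) and Zfpm2 by 0.48 (0.000952), where 15.3% of all genes were called lower. The remaining 3 arrays lay below all 6 wild type arrays for Gata5, Gata6 and Zfpm2, as for 11.8% of all genes, while for Gata4 the highest of them, 9.82, lay just above the lowest wild type array, 9.81. Without wild type replicate 2, which had the lowest wild type values of Gata4, Gata6 and Zfpm2, these 3 genes were called, at -0.41 (adjusted p 0.0341), -0.60 (0.00758) and -0.38 (0.0364), where 5.24% of all genes were called lower. Fitted on the arrays of the 2 groups alone, 0 of the 4 genes passed (Gata6 adjusted p 0.135), and 4 of all genes did.

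Mean levels of all 4 genes were higher, not lower, in hearts with both the Nkx2-5 and the Brg1 deletion than in those with the Nkx2-5 deletion alone, but none passed. The difference of Nkx2-5+/-;Brg1+/- from Nkx2-5+/- was 0.48 for Gata4 (SE 0.15, limma adjusted p 0.0948), 0.30 for Gata5 (SE 0.20, 0.512), 0.52 for Gata6 (SE 0.15, 0.0867) and 0.34 for Zfpm2 (SE 0.13, 0.179). Of all genes, 0.0351% were called higher here, which is 7 genes, and 0.0401% in either direction. The unadjusted p was under 0.05 for 3063 genes, Gata4 (0.00292), Gata6 (0.00187) and Zfpm2 (0.0144) among them. The differences without the third Nkx2-5+/- replicate were 0.63, 0.59, 0.68 and 0.48 in that order, all 4 were called (adjusted p 0.00315, 0.00921, 0.00307 and 0.00749), and 6.80% of all genes were called higher. All 3 compound arrays then lay above the remaining 3 Nkx2-5+/- arrays for each of the 4 genes, as for 15.8% of all genes. Against wild type, the compound differed by 0.15 for Gata4 (95% interval -0.13 to 0.43), 0.02 for Gata5 (-0.36 to 0.40), 0.00 for Gata6 (-0.28 to 0.29) and -0.0002 for Zfpm2 (-0.25 to 0.25), with none of the 4 called by limma and 0.0351% of all genes called (unadjusted p under 0.05 for 1473).

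The interaction of Nkx2-5 and Brg1 asks whether the Brg1 deletion shifts a gene differently with and without the Nkx2-5 deletion. It is the difference between compound and Nkx2-5+/- hearts minus that between Brg1+/- and wild type hearts. It rose above 0 for Gata6 by 0.81 (SE 0.19, limma adjusted p 0.0209), for Gata4 by 0.65 (SE 0.18, adjusted p 0.0379) and for Zfpm2 by 0.58 (SE 0.16, adjusted p 0.0372). For Gata5 it was 0.49 (SE 0.25, adjusted p 0.273), which did not pass. Of all genes, 2.23% were called higher and 4.95% in either direction. It shares its arrays with the comparisons above, so it is not separate evidence. With array medians made equal the genes called numbered 267 higher and 744 lower, in place of 445 and 542, and Gata6 was the only 1 of the 4 called (0.73, adjusted p 0.0239), with Gata4 at 0.57 (0.0596) and Zfpm2 at 0.49 (0.0620).

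Single arrays decided these calls as well. The estimate for Gata6 stayed between 0.70 and 0.97 when any 1 of the 19 arrays compared was left out, and its call was lost without Nkx2-5+/- replicate 2 (adjusted p 0.0697), without Nkx2-5+/-;Brg1+/- replicate 1 (0.0692) and without Nkx2-5+/-;Brg1+/- replicate 2 (0.0892). Gata4 kept its call in 6 of 19 such fits, without wild type replicate 2 or 3, Brg1+/- replicate 4, 5 or 6, or Nkx2-5+/- replicate 3, and Zfpm2 in 7 of 19, those 6 and the fit without Brg1+/- replicate 1. The adjusted p of the fits that lost the call lay between 0.0542 and 0.120 for Gata4 and between 0.0501 and 0.111 for Zfpm2. Of all genes, 3.48% were called higher without wild type replicate 2. The share in the fits that lost a call is not given here. With the third Nkx2-5+/- replicate left out all 4 genes were called, Gata5 included, at 0.78 (adjusted p 0.00375), and 10.6% of all genes were called higher.

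**Figure D2:**
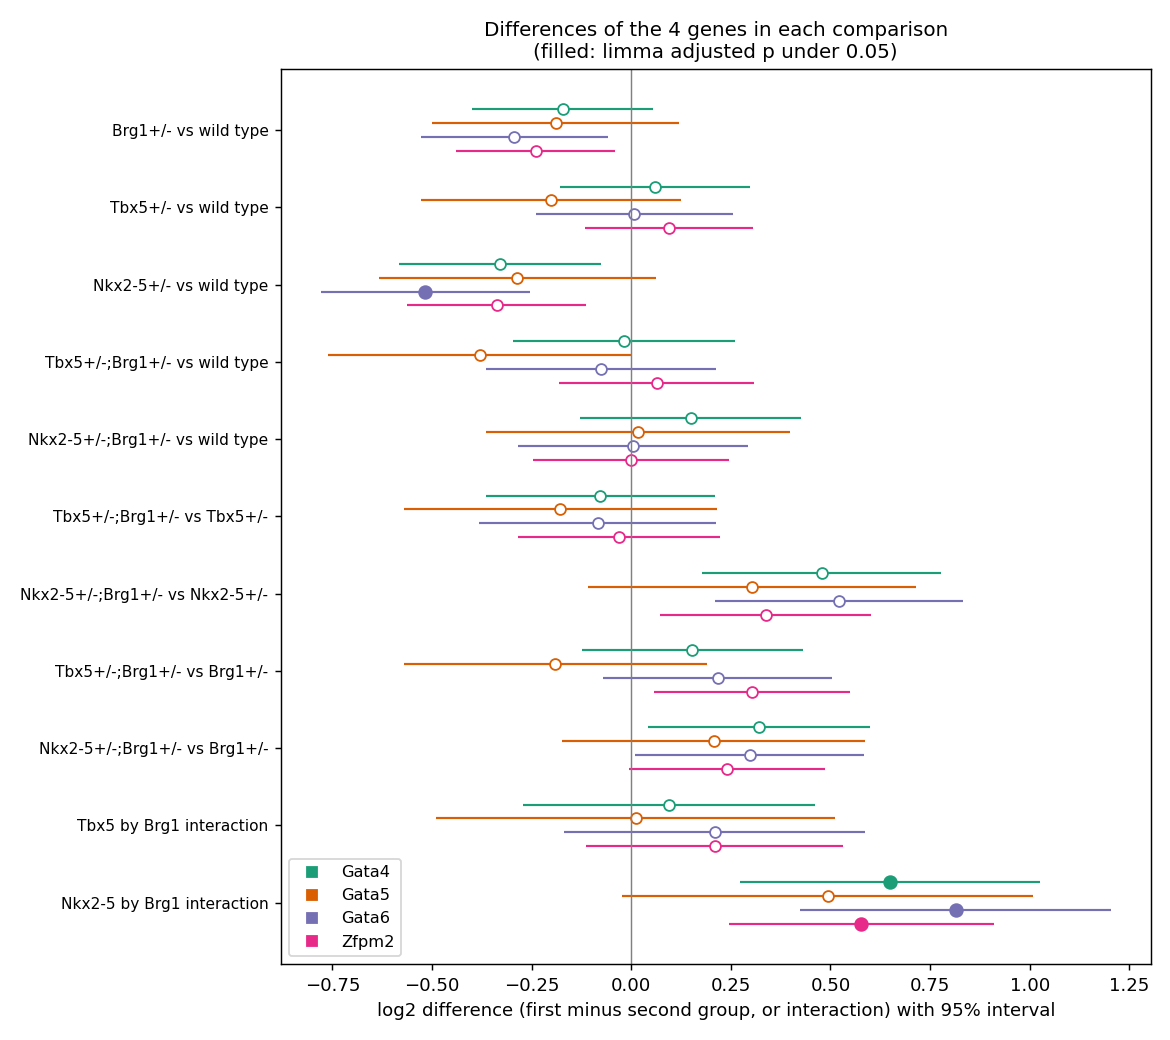
Log2 differences of Gata4, Gata5, Gata6 and Zfpm2 in the 9 comparisons of 2 groups and the 2 interactions, with 95% intervals; filled points have a limma adjusted p under 0.05. The 4 filled points are Gata6 in Nkx2-5+/- against wild type (-0.52) and Gata4, Gata6 and Zfpm2 in the Nkx2-5 by Brg1 interaction (0.65, 0.81 and 0.58).

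The Brg1 deletion alone gave lower means of all 4 genes, and none passed. The differences of Brg1+/- from wild type were -0.17 for Gata4 (95% interval -0.40 to 0.06), -0.19 for Gata5 (-0.50 to 0.12), -0.29 for Gata6 (-0.53 to -0.06) and -0.24 for Zfpm2 (-0.44 to -0.04), with limma adjusted p of 0.621, 0.689, 0.437 and 0.444. Unadjusted, Gata6 (0.0163) and Zfpm2 (0.0207) were under 0.05, as were 1935 genes in all, and 0.01% of all genes were called in this comparison. Against Brg1+/- hearts, the Nkx2-5 compound was higher by 0.32 for Gata4, 0.21 for Gata5, 0.30 for Gata6 and 0.24 for Zfpm2, none called (adjusted p 0.527, 0.802, 0.567 and 0.579) with 0.01% of all genes called higher and an unadjusted p under 0.05 for 1729. Its 3 arrays lay above all 6 Brg1+/- arrays for each of the 4 genes, as for 2.47% of all genes. For Gata5 they only just did, with a lowest compound array of 8.387 and a highest Brg1+/- array of 8.386.

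None of the 4 genes was called in a comparison that involves the Tbx5 deletion, where 0% of all genes were called. Against wild type, Tbx5+/- hearts differed by 0.06 for Gata4 (95% interval -0.18 to 0.30), -0.20 for Gata5 (-0.53 to 0.12), 0.01 for Gata6 (-0.24 to 0.25) and 0.09 for Zfpm2 (-0.12 to 0.30). The compound Tbx5+/-;Brg1+/- differed from wild type by -0.02 for Gata4, -0.38 for Gata5 (-0.76 to 0.0001), -0.08 for Gata6 and 0.06 for Zfpm2. It differed from Tbx5+/- by -0.08, -0.18, -0.08 and -0.03, and from Brg1+/- by 0.15, -0.19, 0.22 and 0.30, in the order Gata4, Gata5, Gata6 and Zfpm2. The Tbx5 by Brg1 interaction was 0.09 for Gata4 (-0.27 to 0.46), 0.01 for Gata5 (-0.49 to 0.51), 0.21 for Gata6 (-0.17 to 0.59) and 0.21 for Zfpm2 (-0.11 to 0.53). Without both arrays against their label, the compound differed from wild type by 0.09 for Gata4, -0.30 for Gata5, 0.04 for Gata6 and 0.11 for Zfpm2, and from Tbx5+/- by 0.03, -0.09, 0.04 and 0.02 in that order. From Brg1+/- it then differed by 0.27, -0.11, 0.34 and 0.35, the interaction was 0.21, 0.10, 0.33 and 0.26, and none of the 4 genes was called. The lowest limma adjusted p among the values with all arrays was 0.590, for Zfpm2 against Brg1+/- hearts. Its unadjusted p was 0.0171, and that of Gata5 in the compound against wild type was 0.05003. The unadjusted p was under 0.05 for 788 of all genes in Tbx5+/- against wild type, 873 in the compound against wild type, 494 against Tbx5+/-, 1626 against Brg1+/- and 606 in the interaction.

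Red blood cell genes moved opposite to the GATA factors. Of 12 erythroid genes without globins, 10 were measured, and their mean per array ran from 8.46 to 10.09 in wild type, 9.06 to 10.86 in Brg1+/-, 8.48 to 9.98 in Tbx5+/-, 8.79 to 10.35 in Tbx5+/-;Brg1+/- and 8.19 to 9.99 in Nkx2-5+/-;Brg1+/- hearts. In Nkx2-5+/- hearts it was 10.97, 11.12 and 10.92 on replicates 1, 2 and 4, above all other arrays, and 9.03 on replicate 3. Of the 10 genes, 4 rose in Nkx2-5+/- against wild type (Epor, Gata1, Tal1 and Hemgn, by 1.10 to 2.03), where 2.72% of all genes rose, and all 10 fell in the Nkx2-5 by Brg1 interaction, where 2.72% of all genes fell. The median of the list in the interaction was -2.43 against 0.03 for all genes. Heart muscle genes had lower levels on the same Nkx2-5+/- arrays as the GATA factors. The mean of 6 cardiomyocyte genes was 11.27, 11.34 and 11.22 on replicates 1, 2 and 4 and 12.34 on replicate 3, against 11.78 to 12.21 in wild type hearts, and 4 of the 6 fell in Nkx2-5+/- against wild type (Actn2, Myl4, Tnnt2 and Myh6, by 0.37 to 0.96), where 5.16% of all genes fell. In the interaction, 0 of the 6 were called by limma, with a median of 0.67. Of the leukocyte and macrophage genes, 3 of 6 fell in Nkx2-5+/- against wild type (Lyz2, Mrc1 and Csf1r, by 0.58 to 1.61) and 2 rose in the interaction, where 2.23% of all genes rose, and of the epicardial genes 1 of 6 fell (Tcf21, by 0.45) and 2 rose (Tcf21 and Upk3b). None of 6 endocardial, 6 cushion mesenchyme, 5 liver and 6 skeletal muscle genes was called in either, and of 7 foregut genes Shh alone rose, by 0.38. Of all genes, 7.89% were called in Nkx2-5+/- against wild type and 4.95% in the interaction, in either direction. The list medians in these 2 were -0.26 and 0.41 for endocardial and -0.31 and 0.65 for cushion mesenchyme genes. They were -0.60 and 0.87 for liver, -0.06 and 0.23 for skeletal muscle and 0.20 and -0.11 for foregut genes, against -0.01 and 0.03 for all genes. Without the third Nkx2-5+/- replicate, 6.64% of all genes rose and 15.3% fell against wild type, and 10.6% rose and 5.57% fell in the interaction. In these fits all 10 erythroid genes rose and then fell, 5 of 6 cardiomyocyte genes fell and then 6 rose, 1 of 6 leukocyte genes fell and then 1 rose, and 2 of 6 epicardial genes fell and then 5 rose. Against wild type 1 cushion mesenchyme gene also fell and 3 foregut genes rose, and no other marker gene was called. Wild type replicate 3 stood apart in the liver mean, at 8.62 against 5.27 to 7.56 on the other arrays. The part of blood, muscle or other cells in the differences of the GATA factors was not tested.

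Across the 27 arrays, Pearson's r with the erythroid mean was -0.86 for Gata6, -0.79 for Gata4, -0.77 for Zfpm2 and -0.44 for Gata5, with Spearman's rho of -0.87, -0.73, -0.70 and -0.44. The permutation p of r was 1e-05 for the first 3, the smallest that 100000 resamples can give, and 0.021 for Gata5 (adjusted over the 8 relations with marker means, 2e-05 and 0.021). On deviations from the group means r was -0.76, -0.66, -0.62 and -0.41. Without the 2 arrays farthest from the median of the erythroid mean it was -0.82 for Gata6, -0.72 for Gata4, -0.73 for Zfpm2 and -0.28 for Gata5, so for Gata5 the relation rested on those arrays. With the cardiomyocyte mean, r was 0.80 for Gata6, 0.77 for Zfpm2, 0.76 for Gata4 and 0.45 for Gata5 (rho 0.73, 0.75, 0.64 and 0.24, permutation p of rho for Gata5 0.23). Without both arrays against their label, r with the erythroid mean was -0.86 for Gata6, -0.78 for Gata4, -0.79 for Zfpm2 and -0.41 for Gata5, and r with the cardiomyocyte mean was 0.82, 0.77, 0.77 and 0.39. For Gata5 the permutation p of r was then 0.041 (adjusted 0.047) with the erythroid mean and 0.052 with the cardiomyocyte mean, where it had been 0.019 on all arrays.

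**Figure D3:**
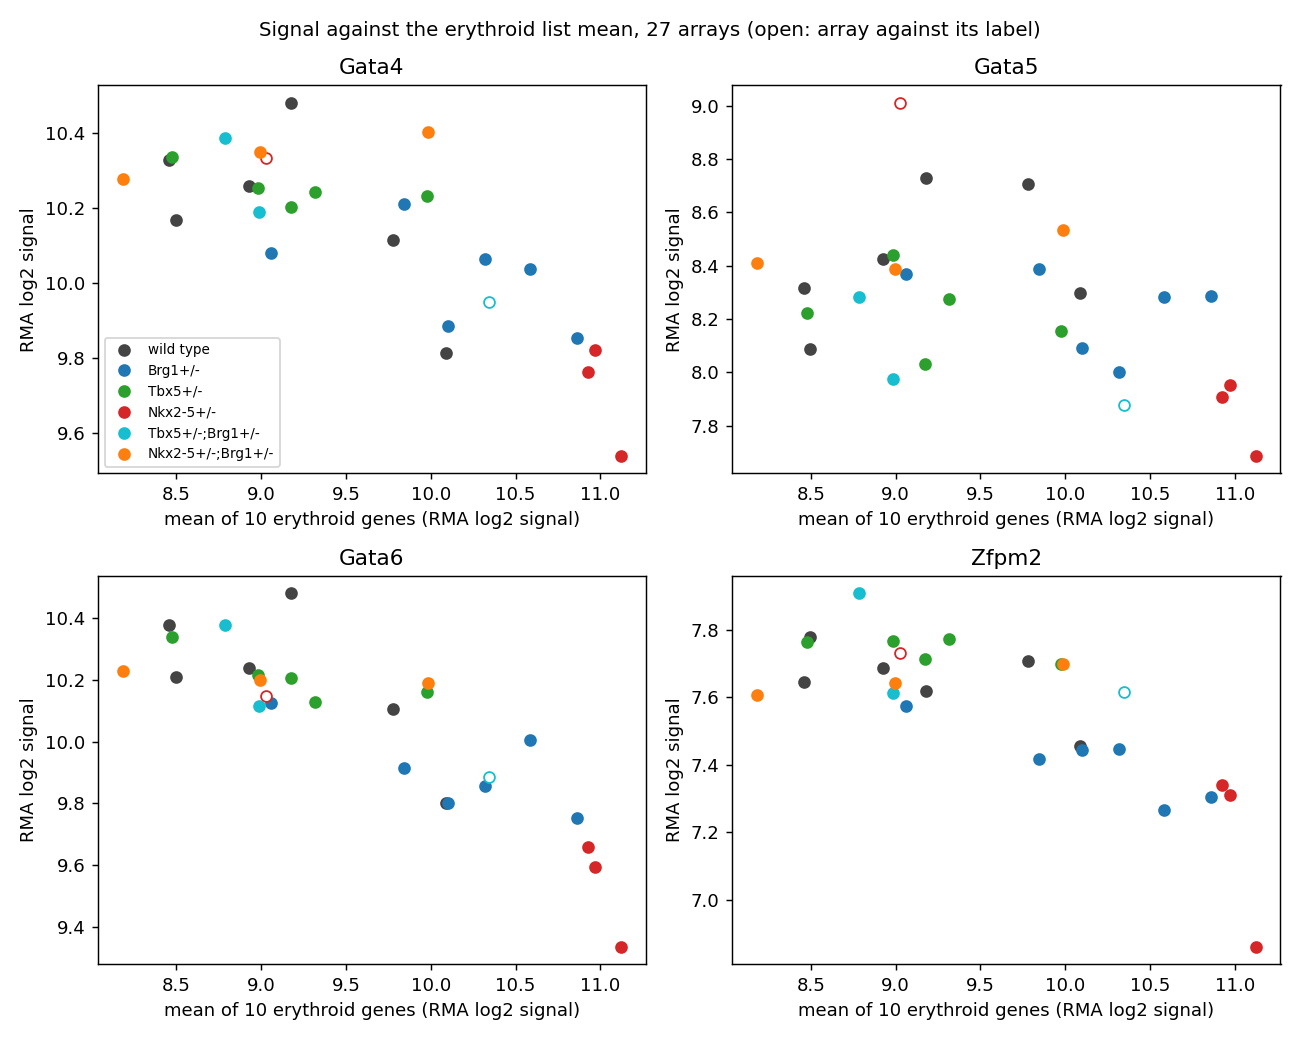
RMA log2 signal of each of the 4 genes against the mean of 10 erythroid genes, a point per array coloured by genotype label, with open circles for the arrays against their label. The 3 filled Nkx2-5+/- points lie at erythroid means of 10.92 to 11.12 and at the low end of each gene, and r over the 27 arrays is -0.86 for Gata6 and -0.44 for Gata5.

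With the erythroid mean as a covariate, no gene of the 4 was called in any comparison. In Nkx2-5+/- against wild type the difference of Gata6 was then -0.24 (limma adjusted p 0.590), that of Zfpm2 -0.15, of Gata4 -0.09 and of Gata5 -0.07, and 4 of all genes were called. The interaction was 0.31 for Gata6, 0.24 for Zfpm2, 0.23 for Gata4 and 0.11 for Gata5 (adjusted p 1.0 for each), with 0 of all genes called. With the cardiomyocyte mean in its place, which was added with the data in view, the difference of Gata6 was -0.27 (adjusted p 0.552) and its interaction 0.49 (0.355). The signs of the 4 genes stayed the same in both comparisons under every setting run.

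**Figure D4:**
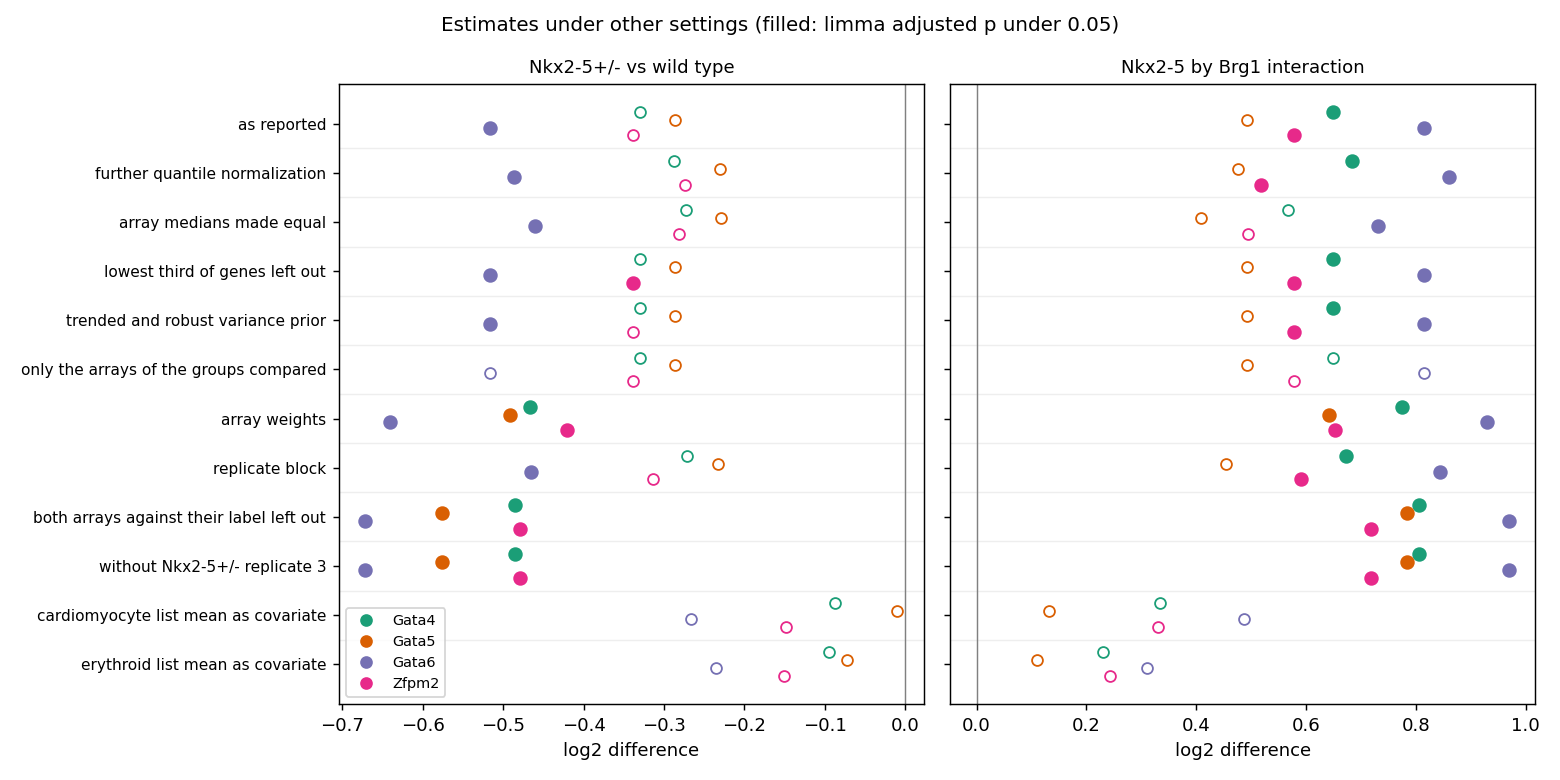
Log2 estimates of the 4 genes in Nkx2-5+/- against wild type (left) and in the Nkx2-5 by Brg1 interaction (right) as reported and under 11 other settings, filled where the limma adjusted p is under 0.05. For Gata6 the estimates on the left run from -0.67 without the third Nkx2-5+/- replicate to -0.24 with the erythroid mean as covariate.

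Among themselves, Gata4 and Gata6 varied most closely together. Pearson's r between them was 0.94 over the 27 arrays and 0.93 on deviations from the group means (rho 0.88 and 0.84, permutation p 1e-05, adjusted over the 6 pairs 2e-05 and 6e-05 for r), and 0.91 without the 2 arrays farthest from the median of Gata4. Zfpm2 had r of 0.86 with Gata6 and 0.82 with Gata4 (rho 0.74 and 0.68). On deviations r was 0.75 and 0.73, but rho was 0.41 and 0.47, and r without the 2 farthest arrays was 0.60 and 0.57. Gata5 was less close, with r of 0.64 to Gata4, 0.59 to Gata6 and 0.48 to Zfpm2, and the last fell to 0.28 without the 2 farthest arrays (rho 0.33, permutation p 0.094). After each gene was regressed on the erythroid mean, r was 0.84 between Gata4 and Gata6, 0.60 between Gata6 and Zfpm2, 0.53 between Gata4 and Zfpm2 and 0.25 between Gata5 and Zfpm2. Without both arrays against their label, r was 0.95 between Gata4 and Gata6, 0.87 between Gata6 and Zfpm2, 0.83 between Gata4 and Zfpm2, and 0.51 to 0.65 between Gata5 and the others. All 27 arrays share the normalization, and the array labelled Nkx2-5+/- replicate 2 has the lowest value of each of the 4 genes.

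The genes whose levels were most like each of the 4, by r over the 27 arrays, were named by rule. For Gata4 they were Gata6 (0.94), Yap1, the Hippo pathway coactivator (0.93), and Sptan1, a spectrin (0.92), and for Gata6 they were Gata4, Dnmbp (0.94) and Hand2 (0.93). On deviations from the group means Gata4 had Gata6 (0.93), Dusp6, a phosphatase of ERK (0.90), and Yap1 (0.90), and Gata6 had Gata4, Fndc3b (0.90) and Dnmbp (0.90). For Gata5 the first genes were Unc5b, a netrin receptor, and Smad7, an inhibitor of BMP and TGF-beta signalling, both over all arrays (0.92 and 0.91) and on deviations (0.96 and 0.92), followed by Slc37a3 (0.90) or, on deviations, by Vcan, the proteoglycan versican (0.92). For Zfpm2 they were Fzd2, a Wnt receptor (0.91), Csnk1e (0.89) and Rcsd1 (0.88), and on deviations Amotl2 (0.90), Wwc2 (0.89) and Dnmt3a (0.86). By r over the 27 arrays Gata6 ranked 18 and Gata4 ranked 101 among all genes for Zfpm2, whereas Gata4 ranked 752 for Gata5. Gata5 ranked 1235 for Gata4, 2260 for Gata6 and 3381 for Zfpm2. Without both arrays against their label, the first 2 genes stayed the same for Gata4, Gata5 and Gata6 (Gata4 also kept Sptan1), followed by Cdk14 (0.88) for Gata5 and Sptan1 (0.93) for Gata6, and Zfpm2 had Fzd2 (0.92), Glis2 (0.91) and Zcchc24 (0.90).

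The other family members were Gata1, Gata2, Gata3, Zfpm1 and Trps1, of which Gata1 and Zfpm1 (Fog1) are the pair of the erythroid lineage. Of the 5, Gata1 alone passed in Nkx2-5+/- against wild type, where it rose by 1.74 (SE 0.45, limma adjusted p 0.0205), and it fell by 2.81 in the Nkx2-5 by Brg1 interaction (SE 0.67, adjusted p 0.0216). Of all genes, 2.72% were called higher in the first and 2.72% lower in the second. Gata1 also belongs to the erythroid list. Without the third Nkx2-5+/- replicate, Zfpm1 rose too, by 1.07 (adjusted p 0.000576), and Gata1 by 2.14. With array medians made equal, 2 of the 5 rose in Nkx2-5+/- against wild type, where 3.92% of all genes did. In the other 9 comparisons none of the 5 was called.

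Of 12 partners of cardiac GATA factors, 6 fell and 1 rose in Nkx2-5+/- against wild type, where 5.16% of all genes fell and 2.72% rose, with a median of -0.38 against -0.01 for all genes. Those with the smallest p were the deleted gene Nkx2-5 (-0.85), Smad1, a transducer of BMP signals (-0.44), Smarcd3, the Baf60c subunit that links GATA factors to the Brg1 complex (-0.52), and Tbx5 (-0.49). The 1 that rose was Ep300, a histone acetyltransferase (0.40, adjusted p 0.0454), named after its value was seen. The 6 that fell include the deleted gene, and the list was chosen with earlier results of these data known. In the interaction 3 of the 12 rose, Smad1 (0.77), Tbx5 (0.88) and Hand2 (0.64), where 2.23% of all genes rose, with a median of 0.54. Without the third Nkx2-5+/- replicate 10 fell and 1 rose in the first comparison, against 15.3% and 6.64% of all genes, and 10 rose in the second, against 10.6%. In the first, 4 fell and 1 rose with array medians made equal, where 3.15% and 3.92% of all genes did. With the erythroid mean as covariate 0 passed in either comparison.

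Of 18 genes reported as GATA targets in heart, 8 fell and none rose in Nkx2-5+/- against wild type, where 5.16% of all genes fell. All 18 estimates were below 0, with a median of -0.43. The deleted gene Nkx2-5 is among the 8, and the list was chosen with earlier results of these data known. The 4 with the smallest p were Nkx2-5, Sema3c, an outflow tract guidance signal (-0.78, SE 0.17), Bmp4 (-0.61, SE 0.13) and Id2 (-0.62, SE 0.16). The 3 genes whose promoters are printed above were also among the 8, Nppa at -0.78, Hand2 at -0.39 and Myh6 at -0.57 (adjusted p 0.0328, 0.0402 and 0.0402). In the interaction Bmp4 (0.97), Tnni3 (0.78) and Hand2 (0.64) rose, where 2.23% of all genes did, and all 18 estimates were above 0, with a median of 0.55 against 0.03 for all genes. With array medians made equal 5 fell in the first comparison, where 3.15% of all genes did. In the second 3 rose, where 1.34% of all genes did, and 1 of the 18 interaction estimates was below 0. Without the third Nkx2-5+/- replicate 15 fell in the first comparison, where 15.3% of all genes did, and 15 rose in the second, where 10.6% did, and with the erythroid mean as covariate none passed. The list shares Nkx2-5, Mef2c and Hand2 with the partners and Myh6 with the cardiomyocyte list. A GATA match was found in the promoters of 7 of the 16 targets matched (7 of 18 windows), against 26.54% of all promoters. These were Plxna2, Nppb, Nppa, Wnt2, Hand2, Myh6 and Slc8a1, of which 3 (Nppa, Hand2 and Myh6) were called in Nkx2-5+/- against wild type, beside 8 of 18 on the whole list.

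Fog2's own partners, 14 genes of the NuRD and CtBP corepressors and the nuclear receptor Nr2f2, gave 0 calls in Nkx2-5+/- against wild type. There 7.89% of all genes were called in either direction, so so short a list can give 0 calls at that share. The median was -0.11 against -0.01 for all genes. In the interaction Nr2f2, the atrial factor COUP-TFII, rose by 0.86 (SE 0.20, limma adjusted p 0.0209), which is 1 of 14 where 4.95% of all genes were called, and the median was 0.08. Without the third Nkx2-5+/- replicate 5 fell (Hdac1, Hdac2, Mta1, Rbbp7 and Ctbp2, named after their values were seen) and Ctbp1 rose in the first comparison, where 15.3% and 6.64% of all genes did, and in the second 3 rose and 2 fell, where 10.6% and 5.57% did. With array medians made equal 1 rose in the first, where 3.92% of all genes did. In the second 1 rose and 2 fell, where 1.34% and 3.73% did. In the other 9 comparisons 0 of the 12 partners, the 18 targets and the 14 Fog2 partners were called.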

How the data were processed

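Total RNA of E11.5 mouse hearts went onto 27 Affymetrix arrays after biotin labelling, per the labels. The values used are log2 signals deposited by the authors. The submitters' processing notes name RMA and Affymetrix Power Tools. Versions and build are not given in the sources used here. Array medians lay between 6.181 and 6.328, and no further normalization was applied. Arrays carry no counts, so their number limits the precision. Of 28815 probe sets, 21780 had 1 symbol in the platform annotation, 1605 had several and 5430 had none, and the probe set with the highest mean was kept for the 998 genes with several. Of the 19935 genes, 19853 matched RefSeq's gene table.

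Groups were compared with limma 3.58.1 in R 4.3.3, with 1 mean per group over all 27 arrays, eBayes without trend, two-sided tests and Benjamini-Hochberg adjustment over all genes within a comparison. Calls were made at adjusted p under 0.05, and the code was tested on simulated data. There were 9 comparisons of groups, 2 interactions and an F test. Correlations were tested with 100000 permutations. Arrays were not paired by replicate number. Genes named are the 4 members, Smarca4, Tbx5 and Nkx2-5, the 3 most alike to each member, and up to 4 called genes of each list (or the 2 with the smallest p, not all given); exceptions are marked. The members and the gene lists were chosen with earlier results of these data known.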

Additional observations from a re-analysis of the deposited data

Results flagged for a closer look

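The effect of the Brg1 deletion differed between hearts with and without the Nkx2-5 deletion for 3 of the 4 genes, by a test of the difference itself (limma interaction term, Nkx2-5 by Brg1), where 2.23% of all genes were called higher and 4.95% in either direction. The difference of differences was 0.6502 on the log2 scale for Gata4, 0.8146 for Gata6 and 0.5779 for Zfpm2, and for each gene the Nkx2-5+/- group holds the array that goes against its label. The calls on Gata4 and Zfpm2 were lost with array medians made equal, and leaving out 1 array at a time kept them in 6 and 7 of 19 fits. In 16 combinations of gene and group with 4 to 6 arrays, tested at the low and the high end, no single array stood far enough from the others of its group to be named, where chance alone names about 1 in 20. Both groups of 3 arrays, of which Tbx5+/-;Brg1+/- holds an array against its label, were not tested in this way.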

How the results depend on the processing

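Counts here are how many of the 4 genes passed, with the share of all genes called in either direction in brackets. In Nkx2-5+/- against wild type, 1 as reported (7.89%), it was 2 with the dimmest genes left out (15.3% of the 13290 kept). It was 4 with array weights (18.8%) or without both arrays against their label (21.8%). It was 0 on the compared arrays alone or with the erythroid or cardiomyocyte mean as covariate (0.0201% each). In Nkx2-5+/-;Brg1+/- against Nkx2-5+/-, 0 as reported (0.0401%), it was 4 with array weights (18.5%) or without both arrays (11.9%). Against Brg1+/- it was 1 with array weights (6.88%). In the Nkx2-5 by Brg1 interaction, 3 as reported (4.95%), it was 4 with array weights (21.2%) or without both arrays (16.3%). It was 1 with array medians made equal (5.07%), and 0 on the compared arrays alone (0.125%) or with either covariate (0%). In the F test, 0 as reported (3.19%), it was 2 with the dimmest genes left out and 1 with a trended prior, where the share was not counted. It was 4 with array weights (29%) or without both arrays (17%). Leaving out 1 array at a time gave 0 in Nkx2-5+/-;Brg1+/- against Brg1+/-. It gave 0 to 4 in each of the other 4 results, with the arrays behind it named above. The cause was not tested, beyond fewer genes or arrays where a setting removes them. All 6 pairs of genes correlated at an adjusted p of r under 0.05 as reported, without both arrays and on deviations, and 5 after regression on the erythroid mean. Such a correlation is not particular to these genes, since over all arrays Gata5 ranked only 3381 among all genes by r with Zfpm2. Of 1020 values of single genes under other settings, 889 kept direction and side of the threshold, 44 lost and 28 gained a call, and 59 changed sign. None of the 59 was a called value. With quantile normalization these were Gata6 in Tbx5+/- against wild type (-0.0136), Gata4 in Tbx5+/-;Brg1+/- against wild type (0.0012) and Zfpm2 in Nkx2-5+/-;Brg1+/- against wild type (0.0565). With array medians made equal they were the last of these (0.0162) and Gata5 in the Tbx5 by Brg1 interaction (-0.0349). With array weights they were Gata6 in Tbx5+/- against wild type (-0.0268), Gata5 and Gata6 in Nkx2-5+/-;Brg1+/- against wild type (-0.0242 and -0.0321) and Gata5 in the Tbx5 by Brg1 interaction (-0.0289). With the erythroid mean they were Gata4 in Tbx5+/-;Brg1+/- and Gata6 in Nkx2-5+/-;Brg1+/- against wild type (0.0194 and -0.0161) and Gata4 and Gata5 in the Tbx5 by Brg1 interaction (-0.0418 and -0.1124). With the cardiomyocyte mean they were Gata6 in Tbx5+/- and Zfpm2 in Nkx2-5+/-;Brg1+/- against wild type (-0.037 and 0.0278) and Gata5 in the Tbx5 by Brg1 interaction (-0.0715). Without both arrays, Tbx5+/-;Brg1+/- differed from wild type by 0.0942 for Gata4 and 0.0443 for Gata6, and from Tbx5+/- by 0.0347 for Gata4, 0.0365 for Gata6 and 0.0171 for Zfpm2. Arrays were not paired by replicate number in the fits reported. Deviations of same-numbered arrays had a median correlation of 0.012 over 55 pairs, with 18 over 0.1. Those of different numbers had -0.0022 over 244 pairs, with 52 over 0.1. These values do not settle whether the numbers pair arrays. With the replicate number as a block, 1 of the 4 genes was called in Nkx2-5+/- against wild type (Gata6, -0.46, limma adjusted p 0.0416). In the Nkx2-5 by Brg1 interaction 3 were called. Of all genes, 1120 and 1368 were called in these comparisons. In Nkx2-5+/-;Brg1+/- hearts 412 were called against Nkx2-5+/-, in place of 8, and 97 against Brg1+/-, in place of 4. The block changed the sign of Gata4 (0.0635) and Gata6 (0.005) in Tbx5+/-;Brg1+/- against wild type, Zfpm2 in Nkx2-5+/-;Brg1+/- against wild type (0.0374) and in Tbx5+/-;Brg1+/- against Tbx5+/- (0.0089), and Gata5 in the Tbx5 by Brg1 interaction (-0.0191). Leaving out 1 array at a time, values that changed sign ran in Tbx5+/- against wild type from -0.0166 to 0.1168 for Gata4 and -0.0724 to 0.0634 for Gata6. In Tbx5+/-;Brg1+/- against wild type they ran from -0.1233 to 0.0942 for Gata4, -0.2022 to 0.0443 for Gata6 and -0.0338 to 0.1137 for Zfpm2. Against Tbx5+/- they ran from -0.1828 to 0.0347, -0.2100 to 0.0365 and -0.1284 to 0.0191 for the same genes. In Nkx2-5+/-;Brg1+/- against wild type they ran from -0.0509 to 0.0775 for Gata5, -0.0757 to 0.0601 for Gata6 and -0.0389 to 0.0257 for Zfpm2. In the Tbx5 by Brg1 interaction they ran from -0.0110 to 0.2065 for Gata4 and -0.1076 to 0.0959 for Gata5.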
